A study of Mus musculus with 24 samples.

Results

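Livers of freely fed Ercc1 d/- mice, the mutant, were compared with livers of freely fed Ercc1 +/+ mice, the wild type, at 16 weeks of age. The libraries were chosen by their labels alone and comprised 4 mutant and 4 wild-type ones, 8 of the 24 in the series. All mice were male F1 hybrids of the C57BL6J and FVBN strains, were housed singly and received a synthetic pellet diet. The labels give a mean food intake of 2.3 g per day for the mutant and 3.0 g per day for the wild type, and food was withheld on the day when the livers were taken. Genotype and intake therefore cannot be told apart in this comparison. Polyadenylated RNA was sequenced and the counts per gene were deposited. The other groups used below, each of 4 libraries, were mutant livers under 30% dietary restriction at 16 weeks (1.6 g per day), wild-type livers under 30% restriction at 16 weeks (2.1 g per day), freely fed mutant livers at 7 weeks and freely fed wild-type livers at 104 weeks. Samples are numbered in the labels with no word on whether each is another mouse, and a p-value here refers to the spread among samples, which may be technical.

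ERCC1 and its partner XPF form the endonuclease that cuts 5′ of a lesion in nucleotide excision repair and also acts in the repair of interstrand crosslinks. The d allele encodes a truncated protein and the second allele is null, so little activity is left and mice of this genotype age early. The mutation is present in all cells, not only in the liver. In cells with unrepaired lesions, RNA polymerase can stall on the template, p53 is stabilised, and nucleic acids that reach the cytosol can start an interferon response. The liver is also the organ where pituitary growth hormone sets male and female programmes of cytochrome P450 genes, and where food intake sets the genes of fatty acid and sterol metabolism.

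Libraries held 13514648 to 16595041 counts in the mutant and 14511828 to 19576692 in the wild type. Over the 500 most variable genes, the first principal component held 75.4% of the variance and separated the genotypes, with the mutant between -20.6 and -15.5 and the wild type between 17.0 and 20.8. The second held 8.07%, with mutant replicate 1 at 11.5. That library lay farthest from its group mean in 42.6% of the called genes (537 of 1262). Albumin was 67478, 62805, 61913 and 52169 CPM (counts scaled to a library of 1000000) in the mutant libraries, against 83982, 65350.4, 71210.2 and 68006 CPM in the wild-type libraries. Summed levels of 18 hepatocyte markers were 114510.0 to 138075 CPM in the mutant libraries and 136979 to 157892 CPM in the wild-type libraries. Albumin is 1 of them and a large part of these sums. Of the 18 markers 1 was called higher and 2 lower (16.7%, against 9.94% of all tested genes). Their median log2 fold change was -0.04, and it was positive for 9 of them. A bulk sample cannot tell fewer cells of a type from less RNA per cell.

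Ercc1, the mutated gene (chromosome 7, 19344778 to 19356524, plus strand, GRCm38), was measured at a low level in each library. Ercc1 had 2.08, 1.08, 1.42 and 1.46 CPM in the 4 mutant libraries, against 3.00, 2.06, 2.81 and 2.47 CPM in the 4 wild-type libraries. The lowest wild-type library lay just below the highest mutant library, and the gene was not called (log2 fold change -0.78 ± 0.28, adjusted p = 0.0754 by edgeR). Gene counts do not show which exons the reads cover, so transcripts of the truncated allele may be included. In the list of nucleotide excision and crosslink repair, 2 of 34 tested members were called higher and 1 lower, with a median log2 fold change of 0.00. The members called were Ercc3 and Rev1, higher, and Fancl, lower, and each of these calls was lost in at least 2 of the 8 fits with 1 library left out.

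A gene was called where edgeR's quasi-likelihood test gave a Benjamini-Hochberg adjusted p under 0.05. Of 12690 genes tested, 1262 were called (9.94%), 647 higher in the mutant (5.1%) and 615 lower (4.85%). In 1182 of the called genes the 4 mutant and 4 wild-type libraries did not overlap, as was the case for 22.5% of all tested genes. The log2 fold change exceeded 1 in size for 594 called genes, 321 of them higher and 273 lower (4.68% of tested genes in all). A fit to the 8 libraries alone called 2202 genes. Leaving out 1 library in turn left 871 to 1082 calls, fewest without mutant replicate 1. Scaling by total counts alone called 906 genes higher and 418 lower, a split that differs from the main one. The median log2 fold change of all tested genes was 0.02, and the medians of gene lists below are to be read against it.

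**Figure D1:**
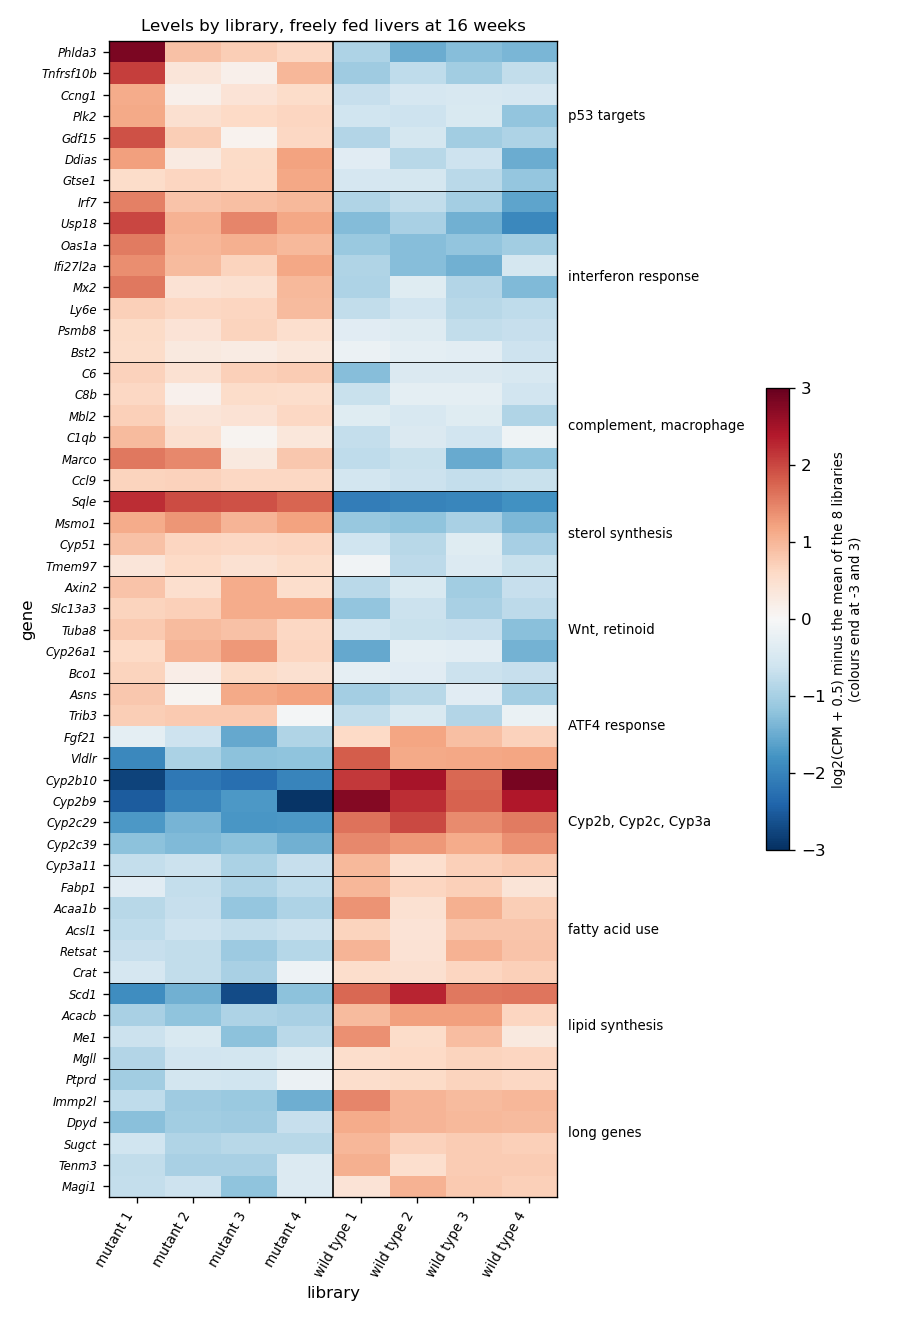
Levels of 54 genes in each library, as log2(CPM + 0.5) minus the mean of the 8 libraries. Mutant libraries are the left 4 columns and wild-type libraries the right 4, genes run down the page by group, red is above and blue below the mean, and colours end at -3 and 3. Mutant replicate 1 is the darkest red for Phlda3, at 22.8 CPM.

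Among the largest rises were genes nearly silent in wild-type liver. Igsf23 had 6.67, 5.07, 5.34 and 5.59 CPM in the 4 mutant libraries, against 0, 0.0665, 0 and 0.206 CPM in the 4 wild-type libraries. Cib3 had 11.1, 16.5, 9.33 and 11.3 CPM in the 4 mutant libraries, against 0.167, 0, 0.18 and 0.617 CPM in the 4 wild-type libraries. The 2 genes, which encode an immunoglobulin superfamily protein and a calcium-binding protein, did not overlap between the groups, and their log2 fold changes were 6.33 ± 0.55 and 5.64 ± 0.58 (edgeR adjusted p = 5.68e-08 and 7.96e-07). Without wild-type replicate 4, which held most of the few wild-type counts, they were 7.66 and 6.56. Both were already present in freely fed mutant livers at 7 weeks, at 5.02 ± 1.13 and 19.8 ± 1.46 CPM (SD, n = 4). Igsf23 (chromosome 7, 19937305 to 19950756, minus strand) lies on the chromosome of Ercc1. Among the 43 tested genes within 1 Mb of Ercc1, Trappc6a, Clasrp, Bcl3 and Igsf23 were called higher and Zfp296 lower (11.6%), a share near that of all genes. The calls of Bcl3, Clasrp and Zfp296 were lost in 4, 6 and 7 of the 8 fits with 1 library left out.

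Further large rises were of Gpx6, a glutathione peroxidase, Tff3, a trefoil peptide, Slc13a5, the plasma membrane citrate transporter, Sult1e1, the oestrogen sulfotransferase, Pls1, an actin bundler of microvilli, and Myo15b, an unconventional myosin. Their log2 fold changes were 4.78, 4.66, 4.38, 4.16, 3.86 and 3.58. Pls1 had 6.86, 16.1, 16.2 and 15.6 CPM in the 4 mutant libraries, against 0.445, 0.133, 1.86 and 1.3 CPM in the 4 wild-type libraries. Mutant replicate 1 was the lowest of the mutant libraries for Pls1 and still lay above every wild-type library. Myo15b had 7.99, 8.49, 9.47 and 14.6 CPM in the 4 mutant libraries, against 1.00, 0.599, 0.659 and 1.1 CPM in the 4 wild-type libraries. Leaving out wild-type replicate 3 moved the log2 fold changes of Tff3, Slc13a5 and Pls1 to 5.44, 5.09 and 4.46, and leaving out wild-type replicate 4 moved that of Sult1e1 to 5.56.

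Large falls were found in cytochrome P450 genes of the Cyp2b cluster, described below with their regulators. Wfdc2, a secreted protease inhibitor of epithelia, had a mean of 0.355 ± 0.144 CPM in the mutant and 4.7 ± 0.835 CPM in the wild type (SD, n = 4; log2 fold change -3.68 ± 0.42, adjusted p = 1.93e-06 by edgeR). Sema5b had 0.315, 0.627, 0.926 and 1.02 CPM in the 4 mutant libraries, against 19.5, 8.78, 10.7 and 9.32 CPM in the 4 wild-type libraries. Sema5b encodes a transmembrane semaphorin, and every mutant library lay far below the lowest wild-type library (log2 fold change -4.06 ± 0.52, adjusted p = 9.83e-06 by edgeR). Serpina12 had 12, 6.78, 9.26 and 7.44 CPM in the 4 mutant libraries, against 69.6, 78.2, 77.4 and 60.7 CPM in the 4 wild-type libraries. This adipokine gene, also called vaspin, fell in the mutant (log2 fold change -3.01 ± 0.32, adjusted p = 1.22e-06 by edgeR). Csad had 8.37, 13.2, 12.4 and 15.7 CPM in the 4 mutant libraries, against 80.2, 30.7, 105 and 52.8 CPM in the 4 wild-type libraries. Csad encodes the decarboxylase of taurine synthesis, and the groups did not overlap (log2 fold change -2.43 ± 0.50, adjusted p = 0.00284 by edgeR).

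Transcripts of p53 targets, which mediate arrest, apoptosis and feedback on p53, were mostly higher where they were called. Of this list 15 of 34 tested members were called higher and 1 lower, with a median log2 fold change of 0.67. Phlda3 had 22.8, 5.47, 4.99 and 4.51 CPM in the 4 mutant libraries, against 1.22, 0.665, 0.838 and 0.754 CPM in the 4 wild-type libraries. Phlda3 is a p53-induced repressor of AKT, and mutant replicate 1 stood well above the other mutant libraries. Tnfrsf10b had 5.41, 1.31, 1.07 and 2.29 CPM in the 4 mutant libraries, against 0.167, 0.333, 0.18 and 0.343 CPM in the 4 wild-type libraries. Tnfrsf10b, the mouse death receptor for TRAIL, was also highest in mutant replicate 1. Their log2 fold changes were 3.42 ± 0.55 and 3.29 ± 0.60 (edgeR adjusted p = 0.000178 and 0.000567), and 2.50 and 2.60 without mutant replicate 1. Ccng1 had 66.5, 34.4, 40.7 and 44.9 CPM in the 4 mutant libraries, against 18.7, 21.4, 21.9 and 21.4 CPM in the 4 wild-type libraries. Ccng1, the cyclin G1 gene, did not overlap between the groups (log2 fold change 1.16 ± 0.21, adjusted p = 0.000658 by edgeR).

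Other called p53 targets were Plk2, a kinase, Gdf15, a stress cytokine, Gtse1, a microtubule-associated p53 regulator, Ddias, a DNA damage-induced apoptosis suppressor, and the apoptosis genes Bax, Bbc3 and Aen. Their log2 fold changes were 1.47 ± 0.35, 1.92 ± 0.41, 1.91 ± 0.40, 1.94 ± 0.39, 0.73 ± 0.17, 1.94 ± 0.49 and 1.08 ± 0.20. Gdf15 had 44.5, 19.4, 12.3 and 17.9 CPM in the 4 mutant libraries, against 6.00, 7.78, 5.33 and 5.76 CPM in the 4 wild-type libraries. Every mutant library lay above every wild-type library for these 7 genes. Perp, a desmosome gene of the p53 pathway, was the member called lower (log2 fold change -0.60 ± 0.12, adjusted p = 0.00225 by edgeR). Cdkn1a had 54.3, 16.1, 24.2 and 14.6 CPM in the 4 mutant libraries, against 8.06, 20.5, 8.98 and 15.6 CPM in the 4 wild-type libraries. The groups overlapped for Cdkn1a, the cell cycle inhibitor p21, and the difference was not called (log2 fold change 1.04 ± 0.55, adjusted p = 0.257 by edgeR). Leaving out 1 library in turn gave 11 to 14 higher calls and 1 lower call.

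**Figure D2:**
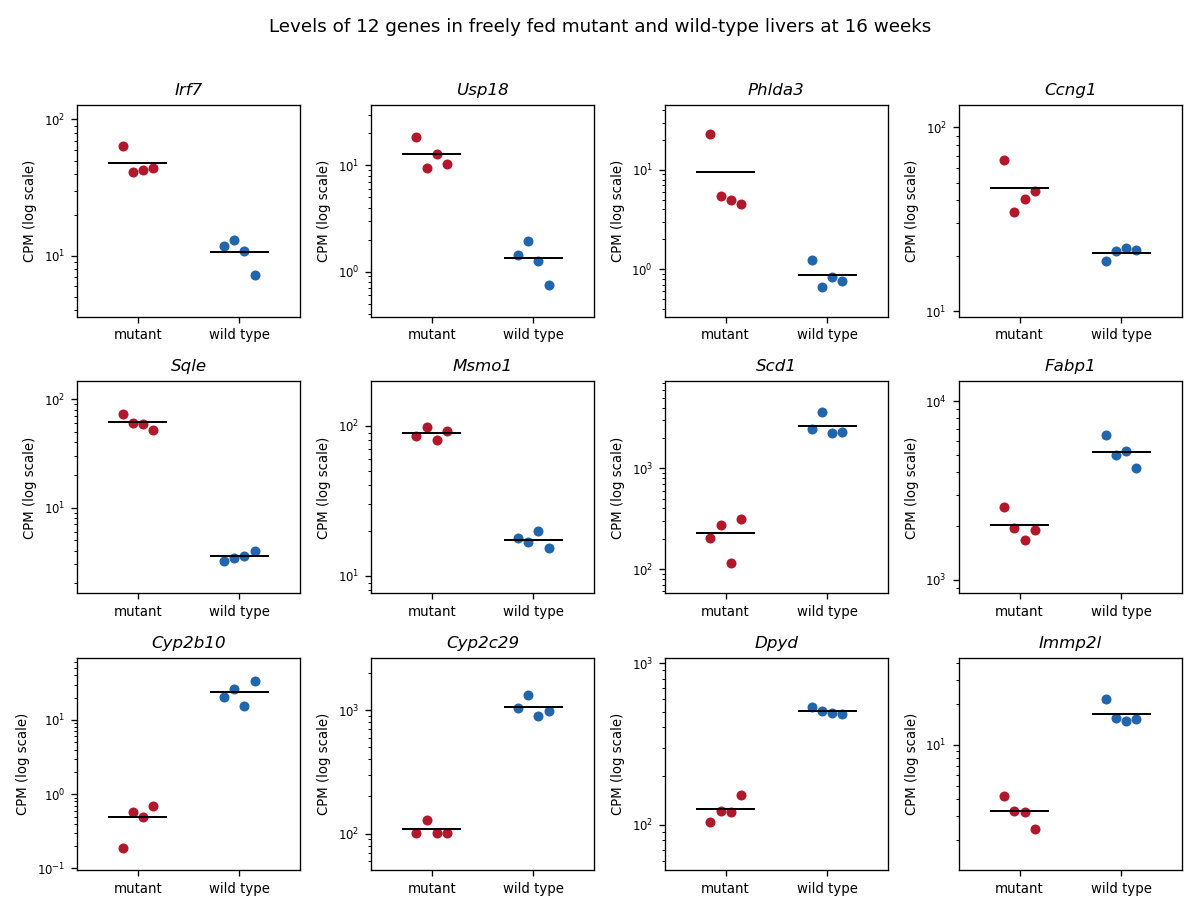
Levels of 12 genes in each library on logarithmic CPM axes, with mutant libraries on the left and wild-type libraries on the right of each panel. Points are libraries and bars are means of 4. The groups do not overlap in any panel, and Phlda3 in mutant replicate 1 stands apart at 22.8 CPM.

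Many genes induced by interferons were higher. Of the interferon-stimulated genes 25 of 57 tested members were called higher and 0 lower, with a median log2 fold change of 0.87. Irf7 had 64.3, 41, 42.4 and 44.3 CPM in the 4 mutant libraries, against 11.8, 13.2, 10.8 and 7.2 CPM in the 4 wild-type libraries. Irf7, the transcription factor that amplifies type I interferon production, had a narrow spread outside mutant replicate 1 (log2 fold change 2.16 ± 0.21, adjusted p = 1.35e-07 by edgeR). Usp18 had 18.6, 9.34, 12.8 and 10.2 CPM in the 4 mutant libraries, against 1.44, 1.93, 1.26 and 0.754 CPM in the 4 wild-type libraries. Oas1a had 8.81, 5.81, 6.13 and 5.72 CPM in the 4 mutant libraries, against 0.945, 0.798, 0.898 and 1.03 CPM in the 4 wild-type libraries. Usp18 removes ISG15 from proteins and dampens interferon receptor signalling, and Oas1a senses double-stranded RNA (3.23 ± 0.33 and 2.84 ± 0.33 on the log2 scale, edgeR adjusted p = 5.18e-07 and 3.09e-06). The reads of Oas1a may be shared with Oas1g, its near copy.

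Ifi27l2a, Mx2, Mx1, Xaf1, Ly6e, Psmb8 and Bst2 also rose, with log2 fold changes of 2.65 ± 0.48, 1.88 ± 0.39, 1.83 ± 0.43, 1.88 ± 0.41, 1.47 ± 0.18, 1.08 ± 0.14 and 0.70 ± 0.13. Mx1 and Mx2 are GTPases that block viruses, Ly6e is a surface protein that limits viral entry, Psmb8 is an immunoproteasome subunit and Bst2 tethers budding virions. Ly6e had 106, 99.5, 102 and 126 CPM in the 4 mutant libraries, against 38.5, 43.6, 36.1 and 38.2 CPM in the 4 wild-type libraries. Bst2 had 248, 205, 199.6 and 212 CPM in the 4 mutant libraries, against 150.0, 138, 136 and 109 CPM in the 4 wild-type libraries. Both genes were separated between the groups at a moderate level of expression. Of the sensors and adaptors of nucleic acids, 3 of 22 tested members were called higher and 0 lower, with a median log2 fold change of 0.20. Zbp1, a sensor of left-handed nucleic acids, kept its call in every fit with 1 library left out (log2 fold change 1.24 ± 0.28, adjusted p = 0.0047 by edgeR). Of antigen presentation genes 5 of 22 tested members were called higher and 0 lower, with a median log2 fold change of 0.28, among them Tapbp, the tapasin gene (log2 fold change 0.65 ± 0.11, adjusted p = 0.000311 by edgeR). Without 1 library in turn, 17 to 23 interferon-stimulated genes were called higher.

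The promoters of 2 of these genes are shown because they carry the sequence bound by interferon regulatory factors and the ISGF3 complex. Sequences are RefSeq promoters on GRCm38.p6, from 250 bases before to 50 bases after the start site, 5′ to 3′ along the gene, Isg15 at chr4:156200769-156201068 and Oas1a at chr5:120907476-120907775, both on the minus strand. Capitals mark matches to GAAA, any 2 bases and GAAA again, searched on both strands, and overlapping matches are merged.
Isg15: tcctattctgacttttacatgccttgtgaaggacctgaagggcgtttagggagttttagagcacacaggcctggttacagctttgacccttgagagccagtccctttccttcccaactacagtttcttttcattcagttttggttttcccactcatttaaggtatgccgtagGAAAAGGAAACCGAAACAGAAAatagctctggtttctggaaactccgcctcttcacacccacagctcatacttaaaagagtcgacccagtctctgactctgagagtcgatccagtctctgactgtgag
Oas1a: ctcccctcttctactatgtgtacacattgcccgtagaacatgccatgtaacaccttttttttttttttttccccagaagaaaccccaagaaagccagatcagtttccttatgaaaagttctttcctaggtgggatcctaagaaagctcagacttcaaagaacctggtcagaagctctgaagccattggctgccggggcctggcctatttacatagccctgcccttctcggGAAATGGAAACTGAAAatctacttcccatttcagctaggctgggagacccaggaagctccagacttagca
The Isg15 window held 3 overlapping matches, beginning 78, 72 and 66 bases before the start, and the Oas1a window held 2, beginning 20 and 14 bases before it. Isg15 encodes the ubiquitin-like protein that Usp18 removes. Isg15 had 23.6, 11.5, 10.7 and 15.6 CPM in the 4 mutant libraries, against 6.78, 6.72, 4.97 and 3.63 CPM in the 4 wild-type libraries. Its groups did not overlap (log2 fold change 1.47 ± 0.45, adjusted p = 0.0372 by edgeR), but the call was lost in 6 of the 8 fits with 1 library left out, with adjusted p from 0.0566 to 0.145. Among the list, 43 members had a promoter in the table and 22 of these held the motif (51.2%), against 3.91% of the 9919 tested genes with a promoter. Of the members with a promoter, 7 of 17 called and 15 of 26 uncalled ones held it.

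Many complement genes, mostly made by hepatocytes, were higher. Of the complement components 10 of 26 tested members were called higher and 0 lower, with a median log2 fold change of 0.37. C6 had 450.4, 385, 462 and 473 CPM in the 4 mutant libraries, against 115, 207, 208 and 202 CPM in the 4 wild-type libraries. C8b had 431, 305, 413 and 406 CPM in the 4 mutant libraries, against 178, 230.3, 227 and 187 CPM in the 4 wild-type libraries. Both encode parts of the membrane attack complex and stood higher in every mutant library (1.27 ± 0.22 and 0.92 ± 0.19, edgeR adjusted p = 0.000378 and 0.00193). Mbl2 had 949.6, 751, 787 and 891 CPM in the 4 mutant libraries, against 453, 415, 454 and 312 CPM in the 4 wild-type libraries. Mbl2, mannose-binding lectin, and C9, which forms the pore of the complex, rose too (1.05 ± 0.17 and 0.79 ± 0.17, edgeR adjusted p = 0.000111 and 0.00407). C1qa, C1qb and C1qc, which macrophages make, were among the called members, and the calls of C1qa and C1qc were lost in 5 and 3 of the fits with 1 library left out.

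Markers of macrophages were higher where they were called. This list shares C1qa, C1qb and C1qc with the complement list, so their calls count in both. Of 28 tested macrophage and Kupffer cell markers, 10 were called higher and 0 lower, and the median log2 fold change was 0.73. Their summed levels were 264 to 507 CPM in the mutant libraries and 214 to 296 CPM in the wild-type libraries. Itgam had no count in the 8 libraries. C1qb had 41.9, 29.9, 22.5 and 26.9 CPM in the 4 mutant libraries, against 12.9, 15.8, 14.1 and 19.3 CPM in the 4 wild-type libraries. Marco had 6.29, 5.64, 2.28 and 3.5 CPM in the 4 mutant libraries, against 0.834, 0.931, 0.299 and 0.48 CPM in the 4 wild-type libraries. Marco, a scavenger receptor, and Trem2, a lipid-sensing receptor, rose (2.79 ± 0.58 and 2.09 ± 0.49). Mutant replicate 1 was the highest mutant library for C1qb. The calls of the list numbered 3 without mutant replicate 1, 6 without mutant replicate 2, 3 without wild-type replicate 1, 6 without wild-type replicate 2 and 5 without wild-type replicate 3. The part of macrophage number in the complement and interferon results was not tested.

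Plasma cell and neutrophil transcripts were uneven between libraries. Ighg1 had 3.02, 0.228, 0.427 and 2.99 CPM in the 4 mutant libraries, against 0, 0.0665, 0 and 0.0685 CPM in the 4 wild-type libraries. Mutant replicates 1 and 4 stood above the other mutant libraries, and this immunoglobulin G1 constant region summed to 105 counts in the mutant and 2 in the wild type. Among the B and plasma cell markers 4 of 10 tested were called higher, with 1 call left without mutant replicate 1, mutant replicate 4 or wild-type replicate 1 and 2 without wild-type replicate 2 or 4. The fit to the 8 libraries alone called 0 of them, with a median log2 fold change of 0.14 against 1.2 in the fit to all 24, and limma voom called 1. Ms4a1, which marks B cells, summed to 3 counts in the mutant and to 1 in the wild type. Of the neutrophil markers, which include Lcn2, 2 of 6 tested were called higher and 0 lower. Their log2 fold changes ran from -0.94 to 3.52, and the fit to the 8 libraries alone called 0 higher and 1 lower. Lcn2 had 202, 42.5, 104 and 371 CPM in the 4 mutant libraries, against 3.06, 43, 5.87 and 11.2 CPM in the 4 wild-type libraries. Lcn2, an iron-binding acute phase protein of neutrophils and stressed hepatocytes, varied widely in both groups (log2 fold change 3.52 ± 0.94, adjusted p = 0.0209 by edgeR), and its call was lost in 4 of the 8 fits with 1 library left out, with adjusted p from 0.0584 to 0.0718. Of the acute phase list 5 of 30 tested members were called higher and 1 lower, with a median log2 fold change of 0.40, but the higher calls numbered 0 without mutant replicate 4, wild-type replicate 1 or wild-type replicate 3, 1 without wild-type replicate 4, 3 without mutant replicate 1 and 9 without mutant replicate 2, and 2 in the fit to the 8 libraries alone or with limma voom. Ccl9 had 19.8, 20.1, 19.2 and 19.3 CPM in the 4 mutant libraries, against 8.22, 7.65, 7.24 and 7.61 CPM in the 4 wild-type libraries. Ccl9, a monocyte-attracting chemokine, was even across the libraries of each group (log2 fold change 1.35 ± 0.19, adjusted p = 3.29e-05 by edgeR).

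Hemoglobin transcripts made up 0.0245, 0.0597, 0.0560 and 0.0733% of counts in the mutant libraries, against 0.177, 0.122, 0.136 and 0.214% in the wild-type libraries. All 4 mutant shares were below all 4 wild-type shares (two-sided exact permutation test over 70 splits, p = 0.0286, the smallest it can give; Benjamini-Hochberg adjusted p = 0.0686 over 6 shares). Of 10 tested erythroid markers, 1 was called higher and 4 lower, with log2 fold changes from -1.77 to 1.06. The lower calls numbered 0 without mutant replicate 1 and 2 without mutant replicate 3 or wild-type replicate 4. Summed levels of 25 endothelial markers were 251 to 330.4 CPM in the mutant libraries and 257 to 442 CPM in the wild-type libraries, and those of stellate cell and matrix markers were 367 to 644 CPM in the mutant libraries and 318 to 548 CPM in the wild-type libraries.

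**Figure D3:**
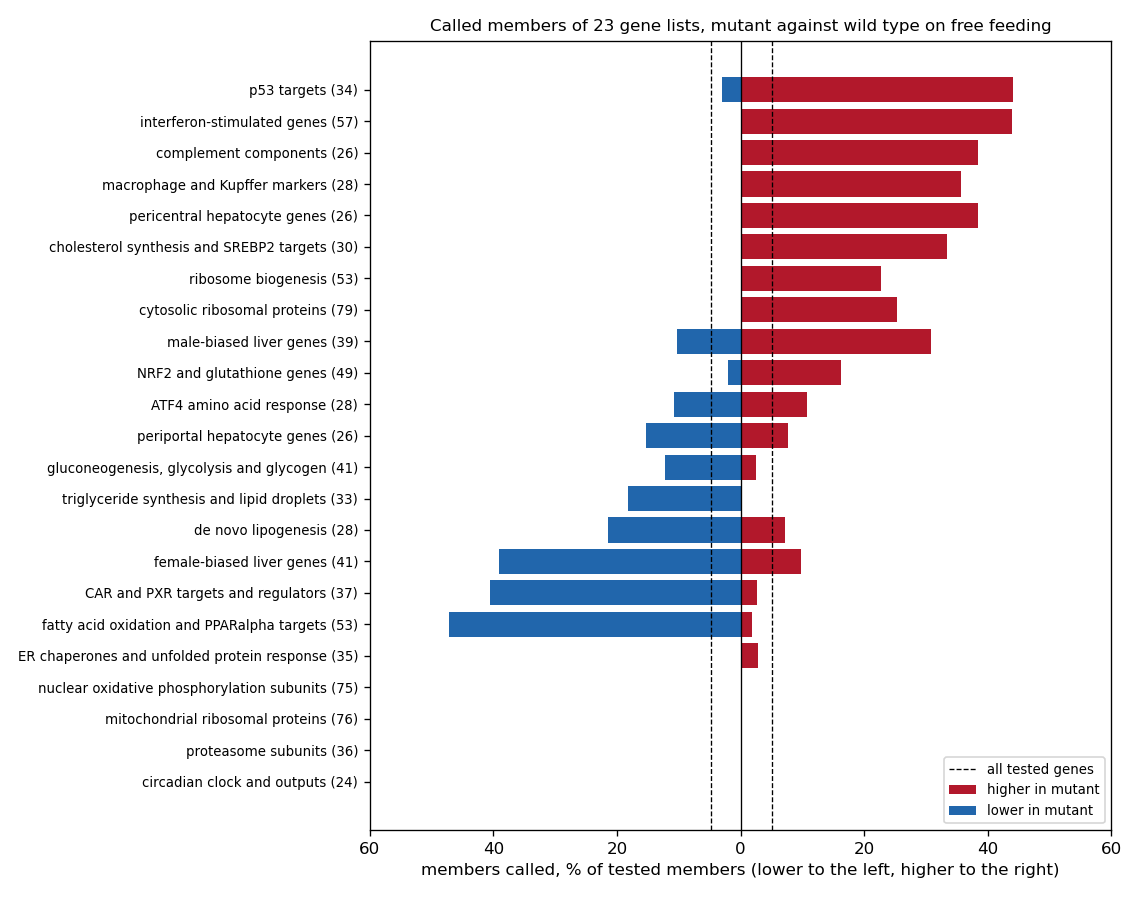
Called members as a share of tested members in 23 gene lists, with members higher in the mutant to the right in red and lower to the left in blue. Numbers in brackets are tested members, and dashed lines mark the shares of all tested genes, 5.1% higher and 4.85% lower. Bars of p53 targets and interferon-stimulated genes reach farthest right, and that of fatty acid oxidation farthest left. The lists were written with earlier results of these data known, so the bars describe the listed genes only.

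Drug-metabolising cytochrome P450 genes under the nuclear receptors CAR and PXR were mostly lower where they were called. Of this list 1 of 37 tested members was called higher and 15 lower, with a median log2 fold change of -0.26. Cyp2b10 had 0.189, 0.57, 0.499 and 0.699 CPM in the 4 mutant libraries, against 20.1, 26.1, 15.2 and 33.9 CPM in the 4 wild-type libraries. The mutant stood below 1 CPM in each library, and no wild-type library was below 15.2 CPM (log2 fold change -5.58 ± 0.58, adjusted p = 1.64e-06 by edgeR). Cyp2b10 (chromosome 7, 25897620 to 25926624, plus strand), Cyp2b9, Cyp2b13 and Cyp2b23 lie in 1 cluster of similar genes and may share reads, and the other 3 had log2 fold changes of -4.67 ± 0.54, -5.02 ± 0.47 and -4.14 ± 0.44. Cyp2c29 had 102, 129, 101 and 101 CPM in the 4 mutant libraries, against 1041, 1323, 907 and 997 CPM in the 4 wild-type libraries. Cyp2c39 had 63, 59.4, 62.9 and 54.5 CPM in the 4 mutant libraries, against 408, 367, 325 and 387 CPM in the 4 wild-type libraries. No library of these epoxygenase genes stood near the other group, with log2 fold changes of -3.30 ± 0.19 and -2.63 ± 0.21 (edgeR adjusted p = 1.96e-11 and 2.38e-08). Cyp3a11 had 561, 586, 470.0 and 567 CPM in the 4 mutant libraries, against 1807, 1306, 1508 and 1574 CPM in the 4 wild-type libraries. Cyp3a11, the main PXR target, fell (log2 fold change -1.5 ± 0.22, adjusted p = 4.46e-05 by edgeR). Nr1i3 had 68.4, 102, 112 and 84 CPM in the 4 mutant libraries, against 199.7, 169, 139 and 151 CPM in the 4 wild-type libraries. Nr1i3, which encodes CAR, was lower (log2 fold change -0.85 ± 0.25, adjusted p = 0.0284 by edgeR), but the call was lost in 4 of the 8 fits with 1 library left out, with adjusted p from 0.0599 to 0.107.

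Where sex-biased genes were called, most female-biased ones were lower and most male-biased ones higher. Female-biased genes gave 4 higher and 16 lower calls of 41 tested, with a median log2 fold change of -1.14. Several of them are the Cyp2b and Cyp3a genes above. Single members of this female-biased list ran from -5.58 to 5.74 on the log2 scale, so its largest rise was at least as large as its largest fall. The 4 members called higher are not described here. Cux2 had 0.441, 0.399, 0.214 and 1.33 CPM in the 4 mutant libraries, against 9.11, 5.46, 5.93 and 5.21 CPM in the 4 wild-type libraries. Abcd2 had 3.02, 2.22, 3.21 and 4.96 CPM in the 4 mutant libraries, against 17.5, 12, 17.7 and 16.9 CPM in the 4 wild-type libraries. Cux2, a repressor of male-biased genes in female liver, and Abcd2, a peroxisomal fatty acid transporter, were lower (-3.41 ± 0.83 and -2.26 ± 0.40, edgeR adjusted p = 0.0107 and 0.000588), and Cux2 was -4.15 without mutant replicate 4. Male-biased genes gave 12 higher and 4 lower calls of 39 tested, or 7 and 4 without mutant replicate 1. Mup20 had 9093, 7036, 7383 and 9732 CPM in the 4 mutant libraries, against 1909.5, 1807, 2024 and 2363 CPM in the 4 wild-type libraries. Selenbp2 had 759, 827, 878 and 613 CPM in the 4 mutant libraries, against 243, 214, 264 and 252 CPM in the 4 wild-type libraries. Mup20, the major urinary protein darcin, and Selenbp2, a selenium-binding protein, rose (2.04 ± 0.39 and 1.66 ± 0.24). Reads of both can be shared with close paralogs. Susd4 had 19.4, 14.6, 16.2 and 16.8 CPM in the 4 mutant libraries, against 6.06, 6.52, 4.19 and 8.02 CPM in the 4 wild-type libraries. Susd4, a complement regulator, rose as well (log2 fold change 1.44 ± 0.20, adjusted p = 3.29e-05 by edgeR), whereas Serpina12, Cyp4a12a, Cyp4a12b and Sult5a1 were the male-biased members called lower.

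Genes of the growth hormone axis differed in part. Ghr had 248, 272, 266 and 273 CPM in the 4 mutant libraries, against 504, 385, 419 and 361 CPM in the 4 wild-type libraries. Ghr, the growth hormone receptor, was lower (log2 fold change -0.66 ± 0.16, adjusted p = 0.0107 by edgeR). Igf1 had 263, 194, 214 and 216 CPM in the 4 mutant libraries, against 246, 230.5, 218 and 238 CPM in the 4 wild-type libraries. Igf1, the hormone that the receptor induces, overlapped between the groups and was not called (log2 fold change -0.07 ± 0.14, adjusted p = 0.812 by edgeR). Socs2 had 13.8, 1.77, 5.41 and 2.48 CPM in the 4 mutant libraries, against 12, 10.2, 10.4 and 16 CPM in the 4 wild-type libraries. Socs2, a feedback target, was high in mutant replicate 1 and low in the other mutant libraries, and was not called (edgeR adjusted p = 0.448). Igfbp2 had 408, 277, 369 and 200.0 CPM in the 4 mutant libraries, against 109.7, 106, 106 and 78.3 CPM in the 4 wild-type libraries. Igfbp2, an IGF-binding protein, rose (log2 fold change 1.65 ± 0.29, adjusted p = 0.000433 by edgeR).

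Genes of fatty acid oxidation were mostly lower where they were called. Of 53 tested members of the list of fatty acid oxidation and PPARalpha targets, 1 was called higher and 25 lower, with a median log2 fold change of -0.57. Fabp1 had 2556, 1942, 1681 and 1903 CPM in the 4 mutant libraries, against 6435, 4979, 5253 and 4213 CPM in the 4 wild-type libraries. Acaa1b had 587, 650.4, 471 and 548 CPM in the 4 mutant libraries, against 2656, 1447, 2194 and 1741 CPM in the 4 wild-type libraries. Acsl1 had 633, 706, 655 and 687 CPM in the 4 mutant libraries, against 1725, 1433, 1920.0 and 1921 CPM in the 4 wild-type libraries. Fabp1 carries fatty acids in the hepatocyte cytosol, Acaa1b is the peroxisomal thiolase and Acsl1 activates long-chain fatty acids, and none overlapped between groups. Their log2 fold changes were -1.37 ± 0.17, -1.83 ± 0.26 and -1.38 ± 0.20 (edgeR adjusted p = 7.45e-06, 4.13e-05 and 4.71e-05). Retsat had 269.5, 260.3, 205 and 239.7 CPM in the 4 mutant libraries, against 872, 586, 889.9 and 786 CPM in the 4 wild-type libraries. Crat had 39.6, 34, 28.8 and 51.2 CPM in the 4 mutant libraries, against 82, 79.4, 88.7 and 93.8 CPM in the 4 wild-type libraries. Retsat, retinol saturase, and Crat, carnitine acetyltransferase, were lower too (-1.69 ± 0.19 and -1.16 ± 0.18). Ppara had 47, 55, 53.9 and 75.2 CPM in the 4 mutant libraries, against 62.9, 82.5, 87.8 and 93.8 CPM in the 4 wild-type libraries. Ppara, the receptor that drives these genes in fasting, was not called (log2 fold change -0.5 ± 0.22, adjusted p = 0.168 by edgeR). Ucp2, a mitochondrial carrier, was the member called higher (log2 fold change 0.93 ± 0.20, adjusted p = 0.00281 by edgeR). Leaving out 1 library in turn gave 20 to 27 lower calls.

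Genes of fatty acid synthesis and storage were mostly lower where they were called. Of 28 tested genes of fatty acid synthesis 2 were called higher and 6 lower, with a median log2 fold change of -0.41. The higher ones were Slc13a5 and Elovl1, a fatty acid elongase, and the call of Elovl1 was lost in 7 of the 8 fits with 1 library left out, with adjusted p from 0.0576 to 0.0867. Scd1 had 205, 273, 114 and 317 CPM in the 4 mutant libraries, against 2464, 3646, 2220.1 and 2277 CPM in the 4 wild-type libraries. Scd1, the stearoyl-CoA desaturase, was lower (log2 fold change -3.54 ± 0.43, adjusted p = 9.83e-06 by edgeR), and its reads may be shared with Scd2 and Scd3. Acacb had 37.8, 32.1, 39 and 37.7 CPM in the 4 mutant libraries, against 145, 177, 175 and 118 CPM in the 4 wild-type libraries. Me1 had 94.3, 108, 62.3 and 84.5 CPM in the 4 mutant libraries, against 379, 217, 279 and 179.9 CPM in the 4 wild-type libraries. Acacb, the acetyl-CoA carboxylase that restrains carnitine palmitoyltransferase, and Me1, malic enzyme, fell (-2.07 ± 0.27 and -1.60 ± 0.27, edgeR adjusted p = 1.76e-05 and 0.000312). Fasn had 257, 494, 512 and 332 CPM in the 4 mutant libraries, against 618, 455, 465 and 237 CPM in the 4 wild-type libraries. Fasn, fatty acid synthase, overlapped between the groups and was not called (edgeR adjusted p = 0.907). In storage and lipolysis 0 genes were called higher and 6 lower of 33 tested. Mgll had 54.1, 66.9, 68.5 and 76.6 CPM in the 4 mutant libraries, against 144, 153, 159 and 157 CPM in the 4 wild-type libraries. Mgll, monoacylglycerol lipase, and the carboxylesterases Ces1d and Ces1f fell (-1.20 ± 0.20, -1.20 ± 0.23 and -1.66 ± 0.19). Mfsd2a had 57.5, 40.9, 31.5 and 58.2 CPM in the 4 mutant libraries, against 314, 172, 192 and 106 CPM in the 4 wild-type libraries. Mfsd2a, a lysophospholipid transporter, fell with them (log2 fold change -2.06 ± 0.38, adjusted p = 0.00108 by edgeR).

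Genes of cholesterol synthesis were higher where they were called. Of this list 10 of 30 tested members were called higher and 0 lower, with a median log2 fold change of 0.74. Sqle had 73.3, 60.9, 59.3 and 52.4 CPM in the 4 mutant libraries, against 3.22, 3.46, 3.59 and 3.98 CPM in the 4 wild-type libraries. The mutant libraries of Sqle, squalene epoxidase, all lay far above the wild-type libraries (log2 fold change 4.11 ± 0.54, adjusted p = 3.15e-05 by edgeR). Msmo1 had 85.7, 98.7, 80.4 and 91.8 CPM in the 4 mutant libraries, against 17.7, 16.7, 19.8 and 15.2 CPM in the 4 wild-type libraries. Cyp51 had 78.4, 65.8, 65.2 and 66.9 CPM in the 4 mutant libraries, against 28, 23.4, 32.7 and 20.9 CPM in the 4 wild-type libraries. Msmo1 and Cyp51 demethylate lanosterol and its products, and both were separated between groups (2.36 ± 0.44 and 1.40 ± 0.31, edgeR adjusted p = 0.00124 and 0.00467). Tmem97 had 36, 42.6, 38.1 and 41.3 CPM in the 4 mutant libraries, against 25.8, 15.9, 20.8 and 17.3 CPM in the 4 wild-type libraries. Tmem97, a sterol-regulated membrane protein, rose (log2 fold change 0.98 ± 0.17, adjusted p = 0.000339 by edgeR). Srebf2, the transcription factor of the pathway, had a log2 fold change of 0.54 ± 0.20 (edgeR adjusted p = 0.0789). The higher calls of the list fell to 6 without wild-type replicate 2 and to 4 without wild-type replicate 4.

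Promoters of Msmo1 and Cyp51 are shown because both hold the CCAAT box, the letters that NF-Y binds. Both are RefSeq promoters on GRCm38.p6 on the minus strand, Msmo1 at chr8:64733529-64733828 and Cyp51 at chr5:4104648-4104947, with CCAAT, searched on both strands, in capitals.
Msmo1: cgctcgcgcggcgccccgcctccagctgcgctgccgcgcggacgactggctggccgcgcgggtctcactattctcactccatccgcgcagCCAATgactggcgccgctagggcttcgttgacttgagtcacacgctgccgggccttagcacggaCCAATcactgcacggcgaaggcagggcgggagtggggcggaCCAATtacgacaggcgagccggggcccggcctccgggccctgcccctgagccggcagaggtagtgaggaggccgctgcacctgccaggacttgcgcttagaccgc
Cyp51: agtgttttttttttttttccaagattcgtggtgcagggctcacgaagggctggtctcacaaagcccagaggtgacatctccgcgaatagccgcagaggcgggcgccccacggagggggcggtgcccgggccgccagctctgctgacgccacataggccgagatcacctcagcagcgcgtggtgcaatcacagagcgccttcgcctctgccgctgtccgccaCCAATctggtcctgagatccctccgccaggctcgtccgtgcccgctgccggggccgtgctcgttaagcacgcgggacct
Msmo1 held 3 matches, beginning 160, 96 and 55 bases before the start, and Cyp51 held 1, beginning 29 bases before it. CCAAT was found in 19 of the 22 list members with a promoter (86.4%) and in 43.2% of the 9919 tested genes. Of the members with a promoter, 7 of 7 called and 12 of 15 uncalled ones held it. The sterol element TCACNCCAC, searched on both strands, was found in 1 of the 22 and in 1.47% of all.

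Genes of the amino acid response under ATF4 split by direction. Of this list 3 of 28 tested members were called higher and 3 lower, with a median log2 fold change of 0.15. Asns had 1.26, 0.57, 1.71 and 1.84 CPM in the 4 mutant libraries, against 0, 0.0665, 0.299 and 0 CPM in the 4 wild-type libraries. Trib3 had 3.21, 3.3, 3.35 and 1.65 CPM in the 4 mutant libraries, against 0.834, 1.13, 0.718 and 1.44 CPM in the 4 wild-type libraries. Asns, asparagine synthetase, and Trib3, a pseudokinase that feeds back on ATF4, rose (3.74 ± 0.75 and 1.49 ± 0.30, edgeR adjusted p = 0.00168 and 0.00177). Asns had 6 counts over the wild-type libraries, and its log2 fold change was 5.54 without wild-type replicate 3. Fgf21 had 2.2, 1.65, 0.641 and 1.27 CPM in the 4 mutant libraries, against 4.56, 7.12, 5.69 and 4.87 CPM in the 4 wild-type libraries. Vldlr had 0.0629, 0.627, 0.427 and 0.445 CPM in the 4 mutant libraries, against 7.11, 4.26, 4.37 and 4.45 CPM in the 4 wild-type libraries. Fgf21, the fasting hormone, and Vldlr, a lipoprotein receptor, fell (-1.93 ± 0.45 and -3.66 ± 0.57, edgeR adjusted p = 0.00631 and 0.000123). Atf4 had 141, 88.3, 96 and 75.6 CPM in the 4 mutant libraries, against 91.5, 76.4, 68.6 and 72.1 CPM in the 4 wild-type libraries. Atf4 transcripts overlapped between the groups and were not called (edgeR adjusted p = 0.197).

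Promoters of Asns, Trib3 and Fgf21 are shown because they hold matches to the same element and the genes moved in opposite directions. They are RefSeq promoters on GRCm38.p6, Asns at chr6:7693160-7693459, Trib3 at chr2:152344011-152344310 and Fgf21 at chr7:45615441-45615740, all on the minus strand. Capitals mark the amino acid response element TGATGNAA, searched on both strands, so that a match on the reverse strand reads as its reverse complement.
Asns: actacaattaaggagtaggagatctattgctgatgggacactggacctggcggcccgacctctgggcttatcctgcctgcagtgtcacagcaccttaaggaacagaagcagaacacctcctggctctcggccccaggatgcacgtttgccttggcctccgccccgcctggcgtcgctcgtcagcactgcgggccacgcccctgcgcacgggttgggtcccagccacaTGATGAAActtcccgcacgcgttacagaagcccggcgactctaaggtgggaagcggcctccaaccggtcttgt
Trib3: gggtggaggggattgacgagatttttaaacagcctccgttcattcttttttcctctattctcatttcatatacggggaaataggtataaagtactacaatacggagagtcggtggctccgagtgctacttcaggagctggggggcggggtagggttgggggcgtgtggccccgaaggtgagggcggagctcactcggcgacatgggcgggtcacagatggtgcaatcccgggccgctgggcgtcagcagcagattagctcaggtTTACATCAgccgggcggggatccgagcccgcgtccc
Fgf21: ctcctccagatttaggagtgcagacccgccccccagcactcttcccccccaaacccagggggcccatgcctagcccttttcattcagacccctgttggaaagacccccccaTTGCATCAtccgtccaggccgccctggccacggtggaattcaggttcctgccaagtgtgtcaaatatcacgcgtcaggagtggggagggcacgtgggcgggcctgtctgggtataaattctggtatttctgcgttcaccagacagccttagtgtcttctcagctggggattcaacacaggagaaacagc
The match began 23 bases before the start in Asns, 14 bases after it in Trib3 and 139 bases before it in Fgf21, on the forward strand in Asns and on the reverse strand in Trib3 and Fgf21. It was found in 9 of 22 list members with a promoter (40.9%) and in 2.85% of the 9919 tested genes. Of the members with a promoter, 4 of the 6 called ones held it, namely Trib3, Asns, Vldlr and Fgf21, and 5 of 16 uncalled ones.

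Genes of the pericentral zone, where hepatocytes surround the central vein and receive Wnt signals, were higher where they were called. Of this list 10 of 26 tested members were called higher and 0 lower, with a median log2 fold change of 0.56. The lowest log2 fold change in the list was -0.28, so P450 genes described above as lower, such as Cyp2c29 and Cyp3a11, are not members. The result holds for the listed genes only. Axin2 had 11.8, 9.17, 14.3 and 9.34 CPM in the 4 mutant libraries, against 3.39, 4.46, 2.81 and 3.7 CPM in the 4 wild-type libraries. Axin2, a feedback inhibitor and direct target of Wnt signalling, was separated between groups (log2 fold change 1.64 ± 0.24, adjusted p = 5.21e-05 by edgeR). Slc13a3 had 25.6, 26.4, 35.2 and 35.3 CPM in the 4 mutant libraries, against 6.72, 9.98, 7.96 and 9.05 CPM in the 4 wild-type libraries. Tuba8 had 9.06, 10.3, 9.76 and 8.07 CPM in the 4 mutant libraries, against 3.17, 2.99, 2.93 and 1.85 CPM in the 4 wild-type libraries. Slc13a3, a dicarboxylate transporter, and Tuba8, a tubulin, followed (1.86 ± 0.38 and 1.76 ± 0.34), as did the Wnt target Sp5 (log2 fold change 1.67 ± 0.42, adjusted p = 0.0109 by edgeR). Glul had 373, 388, 398 and 376 CPM in the 4 mutant libraries, against 420.2, 349, 309 and 412 CPM in the 4 wild-type libraries. Glul, glutamine synthetase, a classic pericentral gene, overlapped between the groups and was not called (edgeR adjusted p = 0.884). Of the periportal list 2 of 26 tested members were called higher and 4 lower, with a median log2 fold change of -0.34. The counts were 3 higher and 2 lower without mutant replicate 1, 1 and 3 without wild-type replicate 1, and 1 and 4 without wild-type replicate 2.

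Of 23 tested retinoid genes 4 were called higher and 1 lower, with a median log2 fold change of -0.06. The lower one was Dhrs3, a retinal reductase (-0.46 ± 0.14), whose call was lost in 7 of the 8 fits with 1 library left out, with adjusted p from 0.0548 to 0.123. Retsat, described above with fatty acid oxidation as lower, is not in this retinoid list. Among the higher ones, Cyp26a1, Rdh5 and Bco1 kept their calls in each of the 8 fits with 1 library left out. Cyp26a1 had 10.7, 14.6, 17.7 and 11.2 CPM in the 4 mutant libraries, against 2.06, 5.59, 5.45 and 2.26 CPM in the 4 wild-type libraries. The libraries of Cyp26a1, which degrades retinoic acid and is induced by it, lay higher in the mutant (log2 fold change 1.82 ± 0.29, adjusted p = 0.000108 by edgeR). Rdh5, a retinol dehydrogenase, and Bco1, which cleaves beta-carotene, had log2 fold changes of 0.90 ± 0.13 and 1.00 ± 0.19. Thrb had 6.04, 5.98, 6.2 and 6.1 CPM in the 4 mutant libraries, against 10.5, 15, 13.1 and 14.9 CPM in the 4 wild-type libraries. Thrb, the main thyroid hormone receptor of liver, was lower (log2 fold change -1.13 ± 0.30, adjusted p = 0.0162 by edgeR). Gbe1 had 57.7, 85.1, 62.6 and 82.8 CPM in the 4 mutant libraries, against 171, 150.0, 165 and 135 CPM in the 4 wild-type libraries. Gbe1, the glycogen branching enzyme, and Pcx, pyruvate carboxylase, were lower (-1.11 ± 0.16 and -0.55 ± 0.12). They were among 5 lower calls of 41 tested genes of glucose and glycogen metabolism, with 3 lower calls without any 1 of the mutant replicates 1, 3 and 4 and the wild-type replicates 1 and 2.

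Some ribosomal protein transcripts were called higher. They made up 1.74, 1.38, 1.45 and 1.34% of counts in the mutant libraries, against 1.12, 1.12, 1.05 and 1.03% in the wild-type libraries. The 4 mutant shares lay above the 4 wild-type shares (two-sided exact permutation test, p = 0.0286, adjusted p = 0.0686 over 6 shares). Of the 79 tested genes of this list, 20 were called higher and 0 lower, with a median log2 fold change of 0.38, but 4 were called without mutant replicate 1, 7 without wild-type replicate 4, 9 without wild-type replicate 3, 12 without wild-type replicate 2 and 13 without mutant replicate 3. Rpl22l1 had 28.6, 28, 28.6 and 29.7 CPM in the 4 mutant libraries, against 16.1, 14.5, 11.9 and 13 CPM in the 4 wild-type libraries. Rpl22l1, a paralog of Rpl22, rose most clearly (log2 fold change 1.05 ± 0.14, adjusted p = 2.5e-05 by edgeR). Genes of ribosome biogenesis gave 12 higher and 0 lower calls of 53 tested, with 3 left without mutant replicate 1, 5 without wild-type replicate 2 or 4, 6 without mutant replicate 3 and 7 without wild-type replicate 3. Mybbp1a, a nucleolar protein, was called in each of these fits (log2 fold change 0.85 ± 0.20, adjusted p = 0.0055 by edgeR). Without a filter on low counts 13 ribosomal protein genes were called higher, and with scaling by total counts 59 ribosomal protein and 20 biogenesis genes were called higher.

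No call was made in 4 further groups. Of 75 tested nuclear subunits of oxidative phosphorylation, 76 mitochondrial ribosomal proteins, 36 proteasome subunits and 24 clock genes, 0 were called by edgeR in either direction. Their median log2 fold changes were -0.06, 0.11, 0.01 and -0.17, and 4, 9, 7 and 1 of them had an unadjusted p under 0.05. DESeq2 called 1, 0, 1 and 0 of them, and the fit to the 8 libraries alone 1, 5, 2 and 4. Arntl had 14.5, 14.3, 11.8 and 10.2 CPM in the 4 mutant libraries, against 10.2, 15.9, 11 and 19.2 CPM in the 4 wild-type libraries. Dbp had 9.76, 9.91, 9.62 and 14.7 CPM in the 4 mutant libraries, against 17.9, 8.05, 15.1 and 6.58 CPM in the 4 wild-type libraries. These genes of opposite phase, a core activator and an output of the clock, overlapped between the groups. Of 35 tested chaperones and unfolded protein response genes, 1 was called, Edem2, which directs misfolded glycoproteins to degradation (0.51 ± 0.16), and its call was lost in 5 of the 8 fits with 1 library left out, with adjusted p from 0.0565 to 0.142.

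Lower transcripts were concentrated among long genes. In the decile of tested genes with the longest genomic span, 114 to 2961 kb, 210 of 1269 genes were called lower (16.5%) and 19 higher (1.5%), with a median log2 fold change of -0.30. In the shortest decile, 0.180 to 4.32 kb, 28 were called lower (2.21%) and 81 higher (6.38%), with a median of 0.09. Above 200 kb, 127 of 524 genes were called lower and 7 higher, and above 300 kb the median was -0.63. Within the longest decile, the 634 genes of higher mean level gave 142 lower and 7 higher calls, and the 635 of lower mean level gave 68 and 12.

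The slope of centred log2 level on log10 span was -0.165, -0.0678, -0.131 and -0.0303 in the mutant libraries, against 0.0129, 0.109, 0.118 and 0.154 in the wild-type libraries. No mutant slope reached a wild-type slope, and the means differed by -0.197 (two-sided exact permutation test, p = 0.0286, the smallest it can give). Mutant replicate 1 had the lowest slope of its group and wild-type replicate 1 the lowest of the other. With slopes centred over all 24 libraries, freely fed 16-week livers averaged -0.108 ± 0.0607 in the mutant and 0.0886 ± 0.0602 in the wild type (SD, n = 4 each). Restricted livers averaged -0.0691 ± 0.101 in the mutant and 0.0241 ± 0.0297 in the wild type, and their ranges of -0.21 to 0.0291 and -0.0173 to 0.0534 overlapped. Freely fed mutant livers at 7 weeks averaged 0.0509 ± 0.0393, and wild-type livers at 104 weeks 0.0138 ± 0.189, ranging from -0.266 to 0.141 and so reaching below every 16-week mutant library. Genes are not independent, and slopes were compared over libraries.

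**Figure D4:**
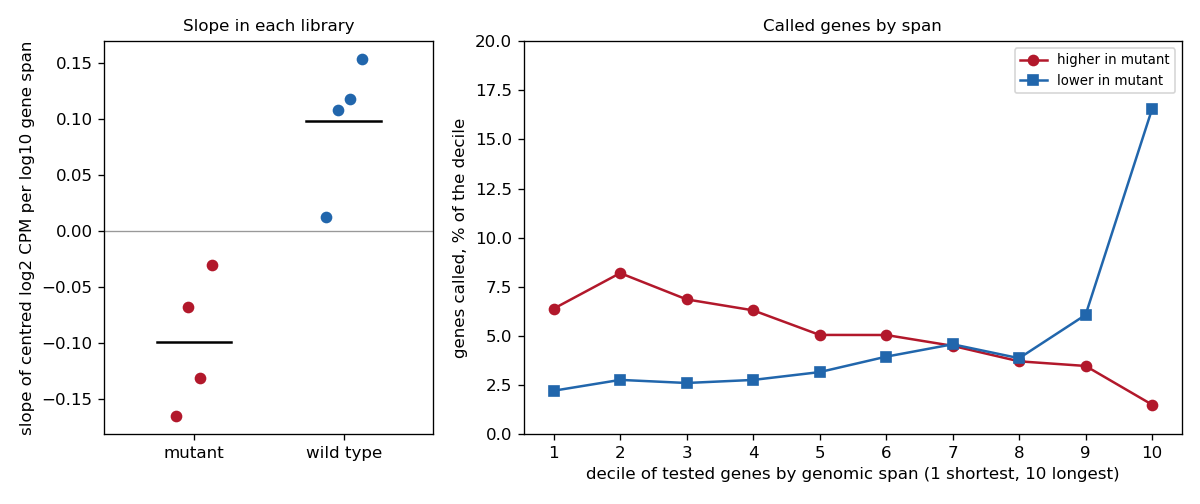
Left, the slope of centred log2 CPM on log10 genomic span in each of 8 libraries, mutant left and wild type right, with bars at the means. Right, called genes as a percentage of each decile of tested genes by span, which reach 16.5% lower in the longest decile.

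The called long genes belonged to many functions. Ptprd (2271 kb), a receptor phosphatase, was the longest called gene. Ptprd had 44, 62.1, 60.3 and 81.6 CPM in the 4 mutant libraries, against 132, 137, 146 and 142 CPM in the 4 wild-type libraries. Immp2l had 4.22, 3.3, 3.21 and 2.42 CPM in the 4 mutant libraries, against 21.5, 15.6, 14.8 and 15.6 CPM in the 4 wild-type libraries. Dpyd had 104, 121, 119 and 153 CPM in the 4 mutant libraries, against 535, 502, 489 and 483 CPM in the 4 wild-type libraries. Immp2l (931 kb) encodes a mitochondrial inner membrane peptidase and Dpyd (871 kb) the enzyme that starts pyrimidine breakdown, and their groups lay far apart. The log2 fold changes of Ptprd, Immp2l and Dpyd were -1.17 ± 0.26, -2.36 ± 0.21 and -2.01 ± 0.18 (edgeR adjusted p = 0.00421, 5.98e-08 and 6.89e-08). Sugct (838 kb), a CoA transferase of glutarate metabolism, Tenm3 (616 kb), a teneurin adhesion protein, Magi1 (608 kb), a junction scaffold, Ptprk (523 kb), a second receptor phosphatase, and Utrn (487 kb), utrophin, fell by 1.61, 1.61, 1.52, 1.34 and 1.39 on the log2 scale. Gbe1, Thrb and Ghr, named above, span 256 kb, 378 kb and 266 kb, and Me1 spans 115 kb.

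The same genotypes under 30% restriction, with no library in common, gave 2320 called genes (18.3%), 1216 higher (9.58%) and 1104 lower (8.7%). In all, 648 genes were called in the same direction on both diets, 51.3% of the calls on free feeding and 27.9% of those under restriction, and 18 were called in opposite directions. Of 12690 genes, 190 (1.5%) differed in genotype effect between the diets in a test of that difference, 75 with a more positive (0.591%) and 115 with a more negative effect on free feeding (0.906%). DESeq2 called 370 such genes. The count was 113 without mutant replicate 1 and 120 without mutant replicate 3.

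Interferon-stimulated genes and p53 targets, where they were called, were mostly higher in the mutant under restriction too. Interferon-stimulated genes gave 27 higher and 0 lower, median log2 fold change 0.79 under restriction, and p53 targets 13 higher and 1 lower, median log2 fold change 0.56. Irf7 averaged 42 ± 8.35 CPM in restricted mutant and 7.27 ± 0.600 CPM in restricted wild-type livers (SD, n = 4 each), a log2 fold change of 2.53 ± 0.21. In the longest decile of genes 185 were called lower and 78 higher under restriction, with a median of -0.18. Its 634 genes of higher mean level gave 130 lower and 25 higher calls under restriction, and its 635 of lower mean level gave 55 and 53, with a median of -0.01. The slopes on span overlapped between the genotypes on that diet. Immp2l and Dpyd had restricted log2 fold changes of -1.84 ± 0.21 and -1.36 ± 0.18. Fatty acid oxidation genes gave 6 higher and 25 lower, median log2 fold change -0.35. Ribosomal protein genes gave 1 higher and 0 lower of 79 under restriction, median log2 fold change -0.01. Ribosome biogenesis genes gave 2 higher and 1 lower of 53, median log2 fold change 0.05. In both of these ribosome lists 0 members had a called difference between the diets.

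Sqle, Scd1 and P450 genes differed in genotype effect between the diets. Sqle averaged 61.5 ± 8.68 CPM in freely fed mutant and 3.56 ± 0.315 CPM in freely fed wild-type livers, and 43 ± 21.3 CPM in restricted mutant and 32.4 ± 12.4 CPM in restricted wild-type livers (SD, n = 4 each). Its genotype effect was larger on free feeding by 3.70 ± 0.69 on the log2 scale (edgeR adjusted p = 0.0065). Cholesterol synthesis genes as a list gave 1 higher and 3 lower, median log2 fold change -0.08 under restriction, and Sqle was the only member with a called difference between the diets. Scd1 averaged 227 ± 88.1 and 2652 ± 671 CPM in freely fed mutant and wild-type livers, against 738 ± 254 and 949 ± 286 CPM in the restricted ones. The difference in its effect was -3.18 ± 0.56 (edgeR adjusted p = 0.00389). Cyp2c39 and Cyp2c29 differed by -2.49 ± 0.28 and -2.26 ± 0.24 (edgeR adjusted p = 1.33e-05 and 1.33e-05). Of 37 CAR and PXR genes, 14 were called higher and 7 lower under restriction, with a median log2 fold change of 0.36. Of 41 female-biased genes, 12 were called higher and 16 lower, with a median of -0.13. A difference between the diets was called for 10 and 14 members of these lists, which share genes, against 1.5% of all tested genes.

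Some genes differed in opposite directions on the 2 diets. Enho, which encodes the peptide adropin, averaged 14.3 ± 1.37 and 2.45 ± 0.892 CPM in freely fed mutant and wild-type livers and 1.48 ± 0.528 and 5.91 ± 2.5 CPM in restricted mutant and wild-type livers (SD, n = 4 each). It was called higher in the mutant on free feeding and lower under restriction, a difference of 4.53 ± 0.52 (edgeR adjusted p = 1.33e-05). Cyp3a11 had the opposite signs, -1.5 ± 0.22 on free feeding and 0.72 ± 0.21 under restriction. Etnppl, a phospholyase of phosphoethanolamine, had -1.23 ± 0.32 and 2.02 ± 0.33, and Gstt3, a glutathione transferase, -1.40 ± 0.22 and 0.93 ± 0.21. The free-feeding call of Etnppl was lost in 3 of the 8 fits with 1 library left out (edgeR adjusted p = 0.0627 without mutant replicate 1, 0.0555 without mutant replicate 3, 0.0581 without wild-type replicate 1). C1ra, a complement protease, was 0.55 ± 0.11 and -0.49 ± 0.11.

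**Figure D5:**
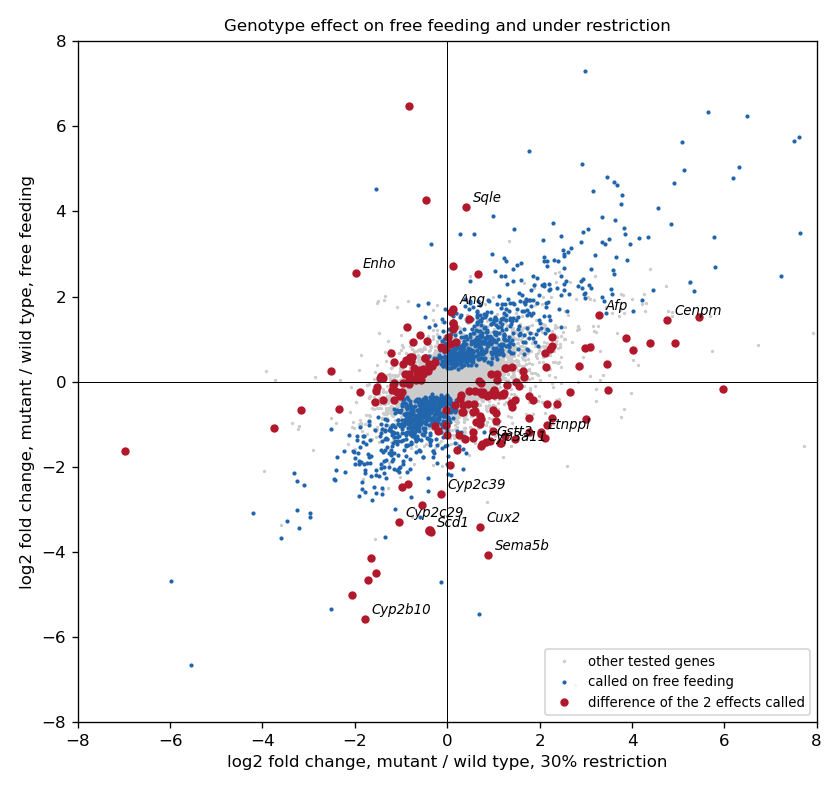
Log2 fold change of mutant over wild type for 12690 genes, under 30% restriction on the horizontal axis and on free feeding on the vertical axis. Red points are the 190 genes whose genotype effects differed between the diets, blue points the other genes called on free feeding. Enho lies at upper left, Cyp3a11 and Etnppl at lower right. 1 gene lies outside the axes, which end 8 log2 units from 0.

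Against freely fed wild-type livers at 104 weeks, the same 4 mutant libraries gave 1861 called genes (14.7%), 948 higher (7.47%) and 913 lower (7.19%). The comparisons share the mutant libraries, so their values are given side by side. Of p53 targets 16 of 34 were called higher and 1 lower against the old wild type, and of interferon-stimulated genes 23 of 57 were called higher and 0 lower. Irf7 was 2.16 ± 0.21 against the 16-week and 1.84 ± 0.20 against the 104-week wild type, and Ly6e 1.47 ± 0.18 and 0.04 ± 0.18. C8b was 0.92 ± 0.19 and -0.04 ± 0.19, and C9 0.79 ± 0.17 and 0.22 ± 0.17. Cyp4a14, an omega-hydroxylase of fatty acids, was -2.72 ± 0.50 and 2.69 ± 0.51, and Crat -1.16 ± 0.18 and 1.28 ± 0.18. Acsl1 was -1.38 ± 0.20 and -0.02 ± 0.20, and Retsat -1.69 ± 0.19 and 0.03 ± 0.18. Immp2l was -2.36 ± 0.21 and -2.54 ± 0.21, and Serpina12 -3.01 ± 0.32 and -4.87 ± 0.34. Genes of the clock differed in the comparison with the old wild type, with Arntl at 2.67 ± 0.28 and Dbp at -3.32 ± 0.40 (edgeR adjusted p = 8.69e-07 and 7.21e-06). The part of collection hour in that comparison was not tested.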

How the data were processed

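Whole-number counts per gene were deposited by the authors as 1 table for 24 libraries. STAR 2.7.0f, Trimmomatic 0.39 and featureCounts (Subread 1.6.4), with build GRCm38.p6, are named in the submitters' processing notes. Strand setting and treatment of reads shared by paralogs were not given in the sources used here, so overlapping, antisense and paralogous genes are uncertain. Gene IDs were matched to GENCODE M21 (22429 of 22429).

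From these counts, CPM was computed on TMM-scaled library sizes. Genes kept by filterByExpr (12690) were tested with edgeR 4.0.16 in R 4.3.3, by the quasi-likelihood F test with 6 group means, 24 libraries and 18 residual degrees of freedom, and Benjamini-Hochberg adjustment over all genes at 0.05. Simulated counts with known changes were used to test the script. limma 3.58.1 (voom), DESeq2 1.42.0, RLE scaling, total-count scaling, other filters, a replicate block and leaving out each library were alternatives. Fold changes are mutant over wild type, ± standard error. Shares and slopes were compared by exact permutation over samples. Slopes used log2(CPM + 0.1), centred per gene.

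Named genes were the 10 largest rises and falls with at least 2 CPM and no overlap, up to 4 called members of each list with the smallest p, a list of regulators, and 5 genes in each direction for the difference between diets. Some were left out or are not reported here, and further list members and the long genes were chosen after their values were seen. Gene lists and their members were chosen with earlier results of these data known. Gene spans run from start to end in GENCODE M21.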

Additional observations from a re-analysis of the deposited data

Results flagged for a closer look

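Among 292 groups of 4 libraries, for the genes named here and 6 shares of counts, 21 held 1 library that stood apart by Dixon's test, and chance gives about 1 in 20. Of these, 10 were in the mutant, 6 of them in replicate 1. Mutant replicate 1 stood apart for Bax (30.9 CPM, the other 3 at 18.9 to 20.9 CPM), Cyp51 (78.4 CPM, the other 3 at 65.2 to 66.9 CPM), Irf7 (64.3 CPM, the other 3 at 41 to 44.3 CPM), Oas1a (8.81 CPM, the other 3 at 5.72 to 6.13 CPM), Phlda3 (22.8 CPM, the other 3 at 4.51 to 5.47 CPM), Pls1 (6.86 CPM, the other 3 at 15.6 to 16.2 CPM). Mutant replicate 2 stood apart for Cyp2c29 (129 CPM, the other 3 at 101 to 102 CPM). Mutant replicate 4 stood apart for Dbp (14.7 CPM, the other 3 at 9.62 to 9.91 CPM), Gtse1 (4.77 CPM, the other 3 at 2.96 to 3.19 CPM), Trib3 (1.65 CPM, the other 3 at 3.21 to 3.35 CPM). Wild-type replicate 1 stood apart for C6 (115 CPM, the other 3 at 202 to 208 CPM), Immp2l (21.5 CPM, the other 3 at 14.8 to 15.6 CPM), Vldlr (7.11 CPM, the other 3 at 4.26 to 4.45 CPM). Wild-type replicate 2 stood apart for Abcd2 (12 CPM, the other 3 at 16.9 to 17.7 CPM), Scd1 (3646 CPM, the other 3 at 2220.1 to 2464 CPM), Zbp1 (5.32 CPM, the other 3 at 2.88 to 3.22 CPM). Wild-type replicate 3 stood apart for Mx1 (1.32 CPM, the other 3 at 0.665 to 0.722 CPM), Slc13a5 (0.958 CPM, the other 3 at 0.206 to 0.333 CPM), Sult5a1 (8.8 CPM, the other 3 at 6.06 to 6.32 CPM). Wild-type replicate 4 stood apart for Fancl (5.83 CPM, the other 3 at 7.84 to 8.05 CPM), Igfbp2 (78.3 CPM, the other 3 at 106 to 109.7 CPM).

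The genotype effect differed between free feeding and 30% restriction, in edgeR's test of that difference, for 20 named genes. The values that follow are log2 effects on free feeding minus those under restriction, with the adjusted p in brackets: C1ra 1.04 (0.000501), Cux2 -4.11 (0.0492), Cyp2b10 -3.80 (0.00675), Cyp2b13 -2.95 (0.0105), Cyp2b23 -2.48 (0.0225), Cyp2b9 -2.96 (0.0295), Cyp2c29 -2.26 (1.33e-05), Cyp2c39 -2.49 (1.33e-05), Cyp3a11 -2.23 (0.000156), Enho 4.53 (1.33e-05), Etnppl -3.25 (0.000359), Gstt3 -2.33 (9.79e-05), Igfbp2 1.57 (0.0448), Mbl2 1.02 (0.0228), Pcx -0.71 (0.0295), Scd1 -3.18 (0.00389), Scd2 -3.13 (0.00401), Scd3 -3.12 (0.00408), Sema5b -4.96 (0.000526) and Sqle 3.70 (0.0065). Scd1, Scd2 and Scd3, like the Cyp2b genes, may share reads and are not separate observations.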

How the results depend on the processing

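Fitting only the 8 libraries moved the count of called genes to 2202. Pairing by replicate number was not seen, as deviations of same-numbered mutant and wild-type libraries correlated between -0.14 and 0.04. This cannot exclude pairing, since the highest correlation of any mutant with any wild-type library was only 0.13. The fit with the replicate number as a block called 2032 genes. DESeq2 called 370 genes for the difference between diets, and leaving out 1 mutant library gave 113 to 140. The slope on gene span differed by -0.225 to -0.175 with 1 library left out, at p = 0.0571, the smallest that 3 against 4 can give in a two-sided exact permutation test. Of the calls on free feeding, leaving out 1 library kept 65.1 to 79.7%, and none took the opposite sign. Small differences that were not called turned sign with 1 library left out, with ranges of -0.28 to 0.039 for Arntl, -0.32 to 0.14 for Dbp, -0.37 to 0.039 for Fasn and -0.037 to 0.097 for Glul. The 4 libraries a group, mutant replicate 1 and low counts of the rarest transcripts limit the precision.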

Other observations

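Glutathione genes and conjugating enzymes were not described above. Of the NRF2 and glutathione list 8 of 49 tested members were called higher and 1 lower, with a median log2 fold change of 0.20, with 2 higher calls left without wild-type replicate 2 or 4, 3 without mutant replicate 1, 4 without mutant replicate 2 or wild-type replicate 3 and 5 without mutant replicate 3. Osgin1 had 381, 260.2, 175 and 297 CPM in the 4 mutant libraries, against 77.6, 91, 106 and 91.3 CPM in the 4 wild-type libraries. Osgin1, an oxidative stress response gene, was separated between groups (log2 fold change 1.61 ± 0.39, adjusted p = 0.0102 by edgeR). Of the glucuronosyl and sulfo transferases 3 of 28 tested members were called higher and 6 lower, with a median log2 fold change of 0.21. Ugt2b1 had 608, 712, 937 and 771 CPM in the 4 mutant libraries, against 369, 357, 443 and 381 CPM in the 4 wild-type libraries. Ugt1a9 had 87.7, 124, 89.4 and 102 CPM in the 4 mutant libraries, against 221, 146, 180.0 and 174 CPM in the 4 wild-type libraries. Both conjugate drugs and steroids with glucuronic acid, and they moved in opposite directions (0.97 ± 0.19 and -0.84 ± 0.16, edgeR adjusted p = 0.00155 and 0.000854). The first exons of Ugt1a genes are joined to shared exons, so reads of Ugt1a9 may belong to its neighbours.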
